A study of Homo sapiens with 2 samples.

Results

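The 10 genes described here (DUSP4, DUSP5, DUSP6, SPRY2, SPRY4, SPRED1, SPRED2, ETV4, ETV5 and PHLDA1) are feedback genes of the RAS-ERK pathway, also called the MAPK pathway. They were chosen by symbol, all 10 were found among the 26255 gene symbols of each file, and all 10 were among the 12414 genes whose mean over the libraries reached 1 FPKM (fragments per kilobase of transcript, scaled to sequencing depth). The libraries came from tumours of HT-29, an established cell line of human colon cancer, grown under the skin of female NOD SCID mice, which lack T and B cells and were 5 weeks old when obtained. After implantation the hosts were kept for 2 weeks on normal food (normal diet) or on food lacking methionine, tryptophan and niacin (depleted diet), though the design text elsewhere gives a period of 3 weeks. There was 1 library per diet, so nothing below was checked on replicates and p-values are left out. The number of mice or tumours behind a library is not stated in the sources used here, and the diet cannot be told apart from other differences between the libraries.

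In the RAS-ERK pathway a growth factor receptor activates RAS, RAS activates RAF kinases, RAF activates MEK, and MEK activates ERK, which switches on genes. Among the genes that ERK switches on are brakes on the pathway itself. The dual-specificity phosphatases (DUSP) remove the activating phosphates from ERK, while Sprouty (SPRY) and SPRED proteins act upstream at receptors and RAS. HT-29 is known to carry an activating BRAF mutation, and mutant BRAF signals without RAS, so that brakes at the level of RAS do not stop it. The transcripts of such brakes are widely used as a readout of ERK activity in BRAF-mutant cells. The FPKM tables hold no sequence of BRAF, so the mutation itself was not checked here.

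All 12 markers of colon epithelium looked at were detected, from CDX2 at 5.14 and 4.92 FPKM to KRT8 at 3849 and 3313 FPKM on the normal and the depleted diet. Such markers cannot tell HT-29 from other colon cancer lines. Of the 35 markers of fibroblasts, endothelium, leukocytes, skeletal muscle and adipocytes, 28 were under a mean of 1 FPKM, and 11 were at 0 in both libraries. The 35 markers summed to 44.8 and 41.5 FPKM, most of it from CD68 at 25.6 and 20.8 FPKM. PTPRC, which marks leukocytes, was at 0.0268 and 0 FPKM, and PECAM1, which marks endothelium, at 0.120 and 0.0932 FPKM. ENG, the 1 endothelial marker that reached a mean of 1 FPKM, was higher on the depleted diet, at 6.71 and 9.36 FPKM (log2 ratio 0.43). The other markers of these 5 cell types that reached a mean of 1 FPKM went both ways. CD14 (0.55), LAPTM5 (0.55) and COL1A1 (0.18) were higher, and CD68 (-0.29), LUM (-0.61) and CIDEC (-0.75) were lower. The host's own cells are of the mouse, and the values were reported for genes of the human genome. The 35 markers therefore cannot tell how much host tissue the tumours held. From the steps in low FPKM values the libraries held about 7.17e+06 and 6.90e+06 assigned fragments.

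ERK output is carried to these genes by transcription factors, among them ETS factors and AP-1, and by release from the repressor CIC, which ERK inactivates. Promoters of the feedback genes with the highest ratios are therefore shown, for those that RefSeq's promoter table (GRCh38.p14) holds, which has 6 of the 10 genes in 9 windows and has no entry matched for DUSP4, DUSP5, ETV4 and ETV5. The search and the choice of motifs were made with the values known. Capitals mark every match, on either strand, to an ETS site (CCGGAA), an AP-1 site (TGANTCA), the core of a cyclic AMP response element (TGACG), the CArG box that SRF binds, or a CIC octamer (TGAATGAA, TGAATGGA, TCAATGAA or TCAATGGA). Each sequence is the strand of the gene and ends at the base before the start site, except that of DUSP6, which runs 10 bases past it.
DUSP6, chr12:89352492-89352751, minus strand: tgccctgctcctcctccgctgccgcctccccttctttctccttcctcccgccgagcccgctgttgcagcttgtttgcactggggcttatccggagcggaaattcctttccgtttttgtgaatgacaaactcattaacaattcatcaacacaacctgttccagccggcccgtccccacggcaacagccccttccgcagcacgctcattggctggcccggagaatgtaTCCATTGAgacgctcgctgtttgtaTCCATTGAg
SPRY4, chr5:142324248-142324497, minus strand: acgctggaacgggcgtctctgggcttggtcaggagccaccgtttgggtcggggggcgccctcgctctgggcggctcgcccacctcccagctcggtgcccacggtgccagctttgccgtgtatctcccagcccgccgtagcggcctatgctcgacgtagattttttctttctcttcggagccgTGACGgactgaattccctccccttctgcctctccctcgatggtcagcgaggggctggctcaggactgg
PHLDA1, chr12:76031777-76032026, minus strand: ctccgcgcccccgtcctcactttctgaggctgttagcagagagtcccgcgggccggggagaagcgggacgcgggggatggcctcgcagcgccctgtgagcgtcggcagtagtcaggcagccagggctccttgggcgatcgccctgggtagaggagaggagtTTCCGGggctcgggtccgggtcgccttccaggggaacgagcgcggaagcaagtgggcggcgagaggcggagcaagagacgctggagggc

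In windows of 250 bases before and 50 bases after a start site, DUSP6 held a pair of identical CIC octamers, TCCATTGA on the gene's strand, which is TCAATGGA read on the other. The first lay 24 to 17 bases before the start site and the other at bases 2 to 9 after it. A CIC octamer of any of the 4 forms was present in 3.77% of all 35116 promoter windows, and in 1 of the 9 windows of the feedback genes. The ETS site was present in 17.2% of all windows and in 2 of the 9, a window each of PHLDA1 and SPRY2. The TGACG core was present in 24.6% of all windows and in 3 of the 9, a window each of SPRY4, SPRY2 and SPRED2. The AP-1 site was present in 7.71% of all windows and in 1 of the 9, a window of SPRED2. The AP-1 matches of SPRED2 lie in the window of a different start site from its TGACG core. The full cyclic AMP response element, TGACGTCA, was present in 1.85% of all windows and in 0 of the 9. The CArG box was present in 1.29% of all windows and in 0 of the 9. These matches describe the letters of the windows, and no binding was measured.

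In the depleted-diet library 9 of the 10 feedback genes were higher than in the normal-diet library, by 4.66% to 44.4% in FPKM, and DUSP5 alone was lower. Among all 12414 genes, 49.4% had a ratio above 0 and 50.6% a ratio below it. Log2 ratios of depleted to normal were taken after adding 1 FPKM to each value, which understates the difference of low genes. The median log2 ratio was 0.17 over the 10 genes and -0.003 over all genes. Of the 10, 7 were above the upper quartile of all genes, 0.1285, though ETV5 at 0.1287 was all but level with it. None of the 10 was at least 1.5-fold higher (1.65% of all genes were), and 1 of the 10 was at least 1.5-fold lower (1.52% of all genes were). The differences of the feedback genes were thus small and, but for DUSP5, in the same direction. The summed FPKM of the 10 genes was 180.1 and 199.4. In a bulk tumour, fewer cells that express a gene and less RNA per cell cannot be told apart.

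**Figure D1:**
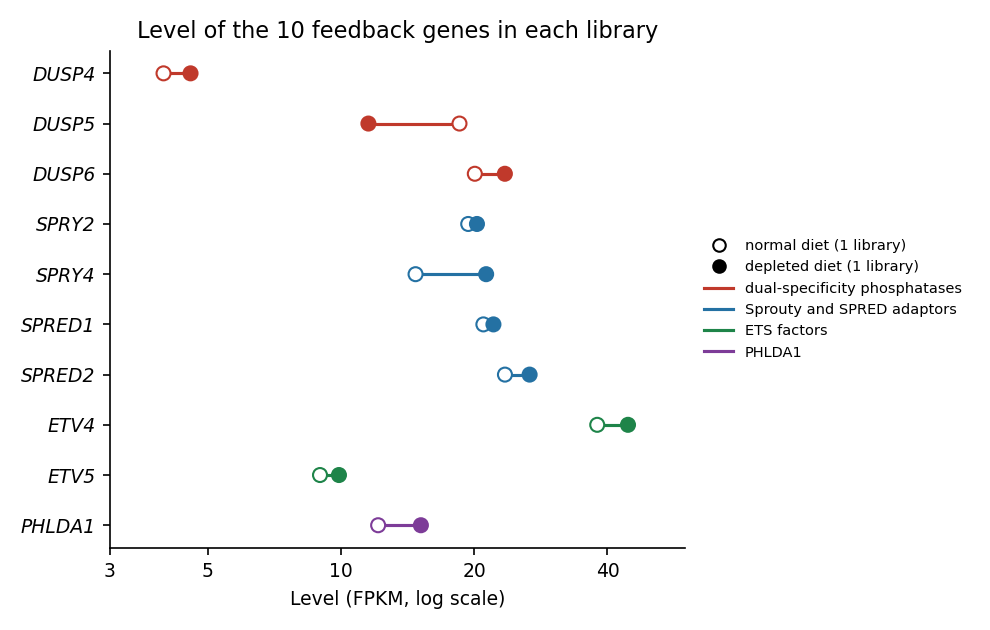
FPKM of each feedback gene (log scale) on the normal diet (open circles) and the depleted diet (filled circles), 1 library each, coloured by role. The filled circle lies to the right of the open one for every gene but DUSP5, which went from 18.5 to 11.5 FPKM, and the widest step to the right is that of SPRY4, from 14.7 to 21.3 FPKM.

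Among the phosphatases, DUSP6 and DUSP4 were slightly higher and DUSP5 lower. DUSP6, a cytoplasmic phosphatase selective for ERK, was at 20.1 FPKM with normal food and 23.5 FPKM with depleted food (log2 ratio 0.22). DUSP4, a nuclear phosphatase that acts on ERK and on the stress kinases, was the lowest of the 10 genes in both libraries, at 3.97 and 4.57 FPKM (log2 ratio 0.16). DUSP5, a nuclear phosphatase selective for ERK, was at 18.5 FPKM with normal food and at 11.5 FPKM with depleted food (log2 ratio -0.64). DUSP5 was therefore the member that departed from the others, and its ratio was the 144th lowest of the 12414 genes. DUSP6 and DUSP5 stood at nearly equal levels on the normal diet, with a ratio of DUSP6 to DUSP5 of 1.08 in FPKM, and at 2.03 on the depleted diet. The ratio of DUSP6 to DUSP4 was 5.05 and 5.14. DUSP4 rests on only about 84 and 93 fragments, and its log2 ratio has a counting standard error of 0.22. A moderate change of this proportion could therefore not be seen.

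Among the Sprouty and SPRED adaptors all 4 were higher on the depleted diet, with SPRY4 apart from the rest. SPRY4, a Sprouty protein that dampens the signal from receptors to RAS and RAF, was at 14.7 FPKM with normal food and at 21.3 FPKM with depleted food. Its log2 ratio of 0.50 was the 315th highest of the 12414 genes. SPRY2, its relative with the same place in the pathway, was 19.4 and 20.3 FPKM (log2 ratio 0.06). SPRY4 was thus below SPRY2 on the normal diet, at 0.760 of its FPKM, and level with it on the depleted diet, at 1.05. SPRED1 and SPRED2 bind neurofibromin, the product of NF1, and bring it to the membrane, where it switches RAS off. SPRED1 was 21.0 and 22.1 FPKM (log2 ratio 0.07). SPRED2 was 23.5 and 26.7 FPKM (log2 ratio 0.18). NF1 itself was 25.003 and 25.7 FPKM, so that SPRED1, SPRED2 and NF1 lay within a narrow range of levels in both libraries. Such levels are common, as 4149 genes, short RNAs left out, had a mean of 10 to 30 FPKM.

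A long noncoding RNA, SPRY4-IT1, lies within the SPRY4 gene and was higher along with it, at 3.13 and 5.69 FPKM (log2 ratio 0.70). The fragments behind SPRY4-IT1 were not estimated, so the counting error of its ratio is not known, and at this low level it may be large. Fragments of a SPRY4 intron could be counted for SPRY4-IT1, and the sources used here do not say whether strand was used in counting. DHX8, which overlaps ETV4 on the opposite strand, was 13.8 and 13.9 FPKM, and DGKG, which overlaps ETV5, was under 0.1 FPKM in both libraries. The log2 ratio of DHX8 was 0.003, and DGKG was too low for a comparison.

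The ETS factors were both higher on the depleted diet. ETV4 and ETV5 are transcriptional activators of the PEA3 group that growth factor signalling induces. ETV4 was the highest of the 10 genes in both libraries, at 37.9 and 44.5 FPKM (log2 ratio 0.23). ETV5 was the second lowest, at 8.96 and 9.89 FPKM (log2 ratio 0.13). ETV4 exceeded ETV5 by 4.23 times on the normal diet and 4.50 times on the depleted diet. PHLDA1, which encodes a protein with a pleckstrin homology-like domain and is also known as a marker of intestinal epithelial stem cells, was 12.1 and 15.1 FPKM. Its log2 ratio of 0.30 was the second highest of the 10 genes, after SPRY4.

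How far each ratio lay outside counting error was estimated from the fragments behind it, taking the shortest RefSeq-linked transcript of each gene in GENCODE, which gives the widest interval. The standard error of the log2 ratio from counting alone was 0.06 for SPRED1, a transcript of 7780 nt, and 0.22 for DUSP4, the gene with the fewest fragments (84 and 93). Without a pseudocount, the log2 ratio of SPRY4 was 0.53 (95% interval 0.30 to 0.76). That of PHLDA1 was 0.32 (0.15 to 0.49), and that of DUSP5 was -0.68 (-0.93 to -0.43). For these 3 genes the interval left out 0, and for the other 7 it held 0. The interval of DUSP6, -0.01 to 0.46, and that of ETV4, -0.01 to 0.48, only just held it. With the longest RefSeq-linked transcript the standard error was 0.08 for DUSP6, ETV4 and SPRED2, and their intervals would leave out 0. The split of 3 and 7 genes thus depends on the transcript taken. These intervals cover counting error only, not the spread between tumours, which 1 library per diet cannot give.

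Genes of like level give a wider yardstick than counting error. Among genes whose mean FPKM was within 2-fold of that of the member, short RNAs left out, the central 95% of log2 ratios ran from -0.39 to 0.37 around SPRY4 and from -0.41 to 0.40 around DUSP5. SPRY4 had 0.951% of 5046 such genes above it, and DUSP5 had 0.327% of 5194 such genes below it. The other 8 feedback genes, with log2 ratios from 0.06 to 0.30, lay inside the central 95% of genes of their level. PHLDA1 had 6.25% of such genes above it, ETV4 7.03%, DUSP6 11.4% and SPRED2 15.6%. DUSP4, ETV5, SPRED1 and SPRY2 had between 24.95% and 37.6% of such genes above them.

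On the normal diet the order of levels was ETV4, SPRED2, SPRED1, DUSP6, SPRY2, DUSP5, SPRY4, PHLDA1, ETV5 and DUSP4. From SPRED2 down to DUSP5, at 23.5 to 18.5 FPKM, no neighbours differed by more than counting error at the 95% level. The other 5 of 9 neighbouring pairs did. Counting error was again taken from the shortest transcripts, in both libraries. With the longest ones it would be smaller, and SPRED2 would differ from its next lower neighbour in both libraries. On the depleted diet SPRY4 moved from the seventh to the fifth place, DUSP6 from the fourth to the third, PHLDA1 from the eighth to the seventh, SPRED1 from the third to the fourth, SPRY2 from the fifth to the sixth, and DUSP5 from the sixth to the eighth. From SPRED2 down to SPRY2, at 26.7 to 20.3 FPKM, no neighbours differed by more than counting error, nor did DUSP5 and ETV5. ETV4 at the top and DUSP4 at the bottom stood clear of their neighbours in both libraries.

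Relatives of these genes outside the list were split between higher and lower. Of 15 DUSP, SPRY, SPRED, ETV and PHLDA relatives, 11 reached a mean of 1 FPKM, 6 of them higher and 5 lower, with a median log2 ratio of 0.0003. PHLDA2, an imprinted relative of PHLDA1 known to restrain placental growth, was at 70.4 FPKM with normal food and 119.9 FPKM with depleted food (log2 ratio 0.76). DUSP1, a nuclear phosphatase of the stress kinases and ERK that is induced early by stress, was 17.7 and 8.12 FPKM (log2 ratio -1.04). Of the phosphatases of both lists, DUSP5 and DUSP1 were those at least 1.5-fold lower; DUSP3, DUSP8 and DUSP16 were also lower, with log2 ratios of -0.13, -0.09 and -0.06. SPRY1, the third Sprouty gene to reach 1 FPKM, was 8.83 and 10.3 FPKM (log2 ratio 0.20), higher as SPRY2 and SPRY4 were.

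The other pathway genes, from receptors to ERK outputs and including the relatives above, were pooled from 7 lists. Counting each gene once, 97 of these 108 reached a mean of 1 FPKM, and 41 of them were higher and 56 lower, with a median log2 ratio of -0.03. Over all genes 49.4% had a ratio above 0 and 50.6% a ratio below it. Of the 97, 1 was at least 1.5-fold higher (PHLDA2) and 2 were at least 1.5-fold lower (DUSP1 and FOS). Among all genes 1.65% were at least 1.5-fold higher and 1.52% at least 1.5-fold lower, so these counts do not set the pathway genes apart. Receptors were higher in 5 of 10 (median -0.01), with EGFR, the receptor of epidermal growth factor, at 12.2 and 13.7 FPKM and FGFR2, a fibroblast growth factor receptor, at 16.0 and 13.7 FPKM. The receptors were thus split evenly, with no ratio as large as that of SPRY4 or DUSP5.

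Genes of RAS activation were higher in 4 of 15 (median -0.06). PTPN11, which encodes the phosphatase SHP2 that links receptors to RAS, had the highest ratio of that list (34.9 and 37.9 FPKM, log2 ratio 0.12), and RRAS, a relative of RAS, the lowest (56.2 and 41.8 FPKM, -0.42). The kinase cascade and its scaffolds were higher in 7 of 14 (median -0.02). BRAF was 5.42 and 5.53 FPKM, a log2 ratio of 0.03. MAP2K1, which encodes MEK1, had the highest ratio of the cascade (36.0 and 43.1 FPKM, 0.25), and MAPK3 the lowest (52.3 and 40.2 FPKM, -0.37). The BRAF transcript was thus level between the libraries.

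Other brakes on RAS and ERK were mostly lower on the depleted diet, with 3 of 12 higher and a median log2 ratio of -0.11. ERRFI1, an inhibitor of the epidermal growth factor receptor, was 155 and 124 FPKM (log2 ratio -0.32), and CBL, a ubiquitin ligase of receptors, was 8.40 and 9.74 FPKM (0.19). ETS and TCF factors outside the list were higher in 7 of 13, with a median of 0.005. ELK1, a partner of SRF that ERK phosphorylates, was 19.0 and 22.4 FPKM (0.22), and ELF3, an epithelial ETS factor, 158 and 111 FPKM (-0.51). CIC was 22.9 and 24.4 FPKM (0.09).

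Other genes known to respond to ERK were split, with 10 of 23 higher and a median log2 ratio of -0.02. MYC was 76.1 and 106 FPKM (log2 ratio 0.47) and CCND1, which encodes cyclin D1, 32.8 and 43.0 FPKM (0.38), so these growth genes were higher along with the feedback genes. FOS was 60.6 and 37.1 FPKM (-0.69). EGR1, an early response gene, was 12.6 and 12.4 FPKM (-0.02), FOSL1, an AP-1 subunit that accumulates under sustained ERK activity, 16.7 and 17.0 FPKM (0.02), and EPHA2, an ephrin receptor, 47.1 and 49.5 FPKM (0.07). The ERK outputs other than the feedback genes were thus spread to both sides in these 2 libraries.

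Lists of sample state also differed between the libraries. Early response genes that react to handling of tissue were lower in 11 of 15 (median -0.19), with a summed FPKM of 572 and 514; DUSP1, FOS, EGR1, IER3, KLF6 and MYC are also in the pathway lists above. Hypoxia genes were lower in 17 of 17 (median -0.39), from INSIG2 at -0.14 to ADM at -0.66. Heat shock genes were higher in 13 of 14 (median 0.24), CHORDC1, a partner of HSP90, having the highest log2 ratio at 0.98 and HSPB1, a small heat shock protein, the lowest at -0.06. The part of these differences in the values of DUSP5, SPRY4 and the other feedback genes was not tested.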

How the data were processed

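There were 2 RNA libraries of HT-29 tumour material, 1 per diet. Per the labels' protocols the kit was for stranded mRNA. The values deposited by the authors are FPKM per gene symbol, per the file headers. The submitters' processing notes list Cuffdiff 2.2.1, TopHat2 2.1.1, SAMtools 0.1.18 and Bowtie2 2.2.8, and the build hg19, with no role for any of them. The sources used here do not say which annotation or strand setting was used, or whether mouse reads were removed.

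FPKM are not counts, so no count model was run. Log2 ratios were log2((depleted + 1)/(normal + 1)). Genes whose mean reached 1 FPKM were kept. Calls were at 1.5-fold. A list was described by its counts and median. All 217 list entries were in the files. The genes named were all 10 members, the highest and lowest ratio of each other list among genes that reached a mean of 5 FPKM, and DUSP1, CCND1, MYC, FOS, EGR1, FOSL1, EPHA2, BRAF, MAPK3, EGFR and CIC, and other genes that are not reported here. NF1, SPRY1, the transcripts that overlap members and the cell type markers were named after their values were seen. The members and lists were chosen with earlier results of these data known.

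A single fragment was worth 1.04 times more FPKM in the library of the depleted diet, judged by 1978 genes under 0.5 FPKM, 84.8% of them at ratios of whole numbers to within 0.1%. Depth came from 92 and 123 genes with a single GENCODE 29 transcript over 1000 nt whose FPKM times length lay at 100 to 190, which was set with the values in view. GENCODE 29 and RefSeq's promoters are on GRCh38, and no coordinates were carried between builds. The calculation was tested on simulated data. Python 3.11.15, numpy 2.4.6 and pandas 2.3.3 were used.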

Additional observations from a re-analysis of the deposited data

How the results depend on the processing

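No paired analysis was possible because a single library stands for each diet, and for the same reason none could be left out. The alternatives were another pseudocount, filter, scaling or fold, and, added with the values in view, short RNAs left out of the background. The 10 members kept their direction in each of 40 values, but this was all but fixed in advance. A pseudocount cannot turn a direction, and the scalings multiplied the depleted library by only 1.03 and 1.004. Under each pseudocount and scaling and with no filter, 9 of 10 were higher; with the filter at 5 FPKM DUSP4 drops out and 8 of 9 were. Their median ran from 0.12 to 0.21. With a pseudocount of 5 FPKM the log2 ratio of DUSP5 was -0.51, so that 0 members were at least 1.5-fold lower. At 2-fold the number was also 0. The smallest fold tried lay between the log2 ratios of PHLDA1 (0.30) and SPRY4 (0.50). At that fold 1 of the 10 members, SPRY4, was called higher and 1, DUSP5, remained lower. A larger pseudocount shrinks ratios by construction. Over all 12414 genes the counts at 1.5-fold were 205 higher and 189 lower. They became 366 and 353 once the pseudocount was 0.1 FPKM, and 62 and 48 once it was 5 FPKM. Of the same 12414 genes, 65 and 46 were called at 2-fold, and 861 and 887 at the smallest fold. With no filter the counts at 1.5-fold were 309 and 320 of 17375 genes. With the filter at 5 FPKM they were 94 and 75 of 9461 genes. Scaling to a common sum added 0.05 to each log2 ratio before the pseudocount. Of 88 medians of other lists, 76 moved by less than 0.1, and the 12 others were of cell type lists in which at most 3 genes passed the filter. Depth limits DUSP4 most.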
